A study of Caenorhabditis elegans with 2 samples.

Results

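The genes described here encode the subunits of the nuclear RNA polymerases, the TAFs and Mediator. They were chosen by name as the protein-coding genes that start with rpb-, rpoa-, rpac-, rpc-, taf- or mdt-, together with cic-1, cdk-8 and let-19, which gave 61 of 19973 protein-coding genes. Peaks came from chromatin immunoprecipitation with sequencing (ChIP-seq) of whole Caenorhabditis elegans L4 larvae of strain RW12291, aged 47.5 hours and synchronised by starving L1 larvae after bleaching. The strain carries the allele st12291, a CRISPR insertion that adds TY1, EGFP and 3xFLAG to the gene Y48G9A.11, and chromatin was recovered with an antibody against GFP. The 2 biological replicates formed a single group, which leaves no second condition to compare, and no p-value was computed. No untagged animals were among the samples, so recovery through the tagged protein and general recovery of active promoters cannot be told apart, and whole animals do not show in which cells a site was occupied.

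RNA polymerase II transcribes protein-coding genes, polymerase I the large ribosomal RNAs, and polymerase III tRNAs and other short RNAs. TAFs join the TATA-binding protein in TFIID, which recognises core promoters, and Mediator relays signals from transcription factors to polymerase II through head, middle and tail modules and a detachable kinase module. Some polymerase subunits belong to 1 enzyme, while others are shared by all of them.

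A gene was counted as having a peak when a summit of the authors' pooled thresholded list (2228 peaks) fell within its 5' end window, from 1000 bp before to 200 bp after the annotated 5' end. Of the 61 genes, 14 had such a peak (23%, exact 95% interval 13.2 to 35.5), against 1225 of all 19973 protein-coding genes (6.13%). The interval covers counting error only, and no summit was shared between members, although most were shared with other genes. Members were chosen with earlier results of these data known, so neither this interval nor those below serve as a test of enrichment. Their peaks fell into 5 strong ones, at rpb-12, cic-1, taf-8, rpb-3 and rpb-6, and 9 weak ones. The signal value, the authors' own value per peak and of unstated scale, was between 517.8 and 1957.4 at the 5 genes and between 95.7 and 141.1 at the 9. The split was made after the values were seen, at the widest gap between neighbouring values (3.67 times), and 881 other main peaks had signals inside that gap.

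Of the 5 strong peaks, 4 held a close copy of a 10-base word and rpb-6 held a looser one. The summits of rpb-12, cic-1, taf-8 and rpb-6 are shown so that close and loose copies can be compared, and that of rpb-3 is not printed here. Each run is 121 bases centred on the summit, in genome build ce11, written 5' to 3' on the strand of the gene. Positions were chrIII:2401274-2401394 on the minus strand for cic-1, chrIV:9147113-9147233 on the minus strand for rpb-12, chrII:9669097-9669217 on the plus strand for taf-8 and chrII:10578983-10579103 on the plus strand for rpb-6. Capitals mark the best match to a 10-base word and, where present, matches to a pair of 8-base words that follow it.
rpb-12: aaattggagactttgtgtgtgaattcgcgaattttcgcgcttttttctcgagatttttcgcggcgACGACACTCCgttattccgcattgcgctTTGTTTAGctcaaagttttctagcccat
cic-1: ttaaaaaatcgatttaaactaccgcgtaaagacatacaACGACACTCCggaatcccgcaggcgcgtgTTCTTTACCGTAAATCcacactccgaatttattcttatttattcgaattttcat
taf-8: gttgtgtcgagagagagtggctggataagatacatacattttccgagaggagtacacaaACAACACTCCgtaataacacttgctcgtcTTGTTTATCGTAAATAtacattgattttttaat
rpb-6: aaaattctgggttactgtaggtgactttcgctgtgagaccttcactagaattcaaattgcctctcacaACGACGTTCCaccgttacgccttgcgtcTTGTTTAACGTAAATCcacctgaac
For contrast, the summits of rpb-11 (chrII:14059886-14060006, plus strand) and of a peak inside mdt-26 (chrII:5661746-5661866, plus strand) are printed without capitals. The first had a weak peak, and its best site matched 8 of 10 bases, as many as at rpb-6, but on the opposite strand, and the words that follow matched at most 5 of 8 bases after it. The second had nearly the strength of the rpb-6 peak. Within 75 bp of its summit, a wider stretch than the one printed, its best site matched 7 of 10 bases. The best site inside the printed run, CCAACACGCG, matched fewer.
rpb-11: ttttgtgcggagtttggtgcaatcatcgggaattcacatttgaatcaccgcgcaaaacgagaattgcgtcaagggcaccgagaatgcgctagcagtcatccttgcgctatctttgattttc
mdt-26 intron: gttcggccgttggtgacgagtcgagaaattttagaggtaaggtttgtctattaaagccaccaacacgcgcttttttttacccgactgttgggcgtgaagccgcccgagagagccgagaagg

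Polymerase II subunits held 3 of the 5 strong peaks. The strongest was at rpb-12, which encodes a small zinc-binding subunit shared by all of the enzymes. Its signal was 1016.0 in replicate 1 and 960.0 in replicate 2, and 1957.4 in the pooled list, where it ranked 4. The summit lay 304 bp upstream of the gene, at position 9147173 of chromosome IV, and also 295 bp upstream of aly-2, which is transcribed the other way. It also fell in the window of daf-10, 962 bp upstream of that gene. When each peak was given only to the nearest protein-coding 5' end, rpb-12 lost this peak.

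The gene rpb-3 encodes a subunit that pairs with the product of rpb-11 early in assembly of the enzyme. Its peak had signals of 327.2 and 296.9 in replicates 1 and 2, and 645.1 in the pooled list (rank 61). The summit lay 138 bp upstream of rpb-3 and 139 bp upstream of the divergent pas-4, which encodes a proteasome subunit, inside an exon of the ncRNA gene C36B1.16. The peak of rpb-11 was much weaker, with signals of 46.8 and 84.9 in the replicates and 127.8 in the pooled list, so the 2 assembly partners stood far apart in rank (61 and 1195).

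The gene rpb-6, whose product is also shared by all of the enzymes, had signals of 249.8 and 258.1 in replicates 1 and 2, and 517.8 in the pooled list (rank 103). Its summit lay 337 bp upstream, between genes, and a further main peak of 86.8 lay 828 bp upstream. The main summit was also in the windows of dohh-1, on the same strand, and of a pseudogene on the other strand. Both replicates gave nearly equal values at rpb-12, rpb-3 and rpb-6.

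The other 7 rpb genes had candidate peaks but no main peak. Candidates are the authors' ranked list of 93610 peaks before thresholding. The strongest candidates at these genes had signals between 35.2 at rpb-8 and 72.6 at rpb-10, and rpb-2, for the second largest subunit, had 52.0. In all, 4 of 11 rpb genes had a main peak (36.4%, exact 95% interval 10.9 to 69.2), against 6.13% of protein-coding genes.

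The rpoa, rpac and rpc genes, for subunits of polymerases I and III outside the shared ones described above, had weak main peaks or none. Of the 4 rpoa genes, which encode polymerase I subunits, 0 had a main peak, which with so few genes allows a share of up to 60.2% (exact 95% limit), and the strongest candidate was 79.6 at rpoa-12. The gene rpac-19, for a subunit common to polymerases I and III, had signals of 45.0 and 55.8 in the replicates and 104.6 pooled, while its assembly partner rpac-40 had a candidate of 64.3. The gene rpc-2, for the second largest subunit of polymerase III, had 73 and 49.6 in the replicates and 99.5 pooled, with the summit 46 bp inside the gene, in a coding exon. At rpc-1, the largest subunit, no candidate summit lay in the window.

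Of the 17 taf genes, 3 had a main peak (17.6%, exact 95% interval 3.8 to 43.4), an interval that includes the 6.13% of protein-coding genes. Of these 3, taf-8 had a strong peak and taf-4 and taf-7.2 had weak ones. TAF8 of human cells pairs with TAF10 through a histone fold and connects lobes of TFIID. The peak of taf-8 had signals of 373.1 and 363.3 in replicates 1 and 2 and 753.4 in the pooled list (rank 45), with its summit 161 bp upstream, between genes, and in no other gene's window. Its partner gene taf-10 had a candidate of 31.8.

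The gene taf-4, whose human counterpart is a core scaffold of TFIID, had signals of 83.4 and 56.9 in replicates 1 and 2 and 141.1 pooled. Its summit lay 229 bp upstream, and also in the window of the divergent pqn-59. The gene for its histone-fold partner, taf-12, had a candidate of 61.9. The gene taf-7.2 had 32.0 and 71.8 in the replicates and 95.7 pooled, the weakest main peak of the 14, with the summit 196 bp upstream but only 58 bp upstream of the divergent elpc-2, an Elongator subunit gene. The other 14 taf genes had a highest candidate of 83.3, at taf-6.1, and taf-7.1 had none.

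**Figure D1:**
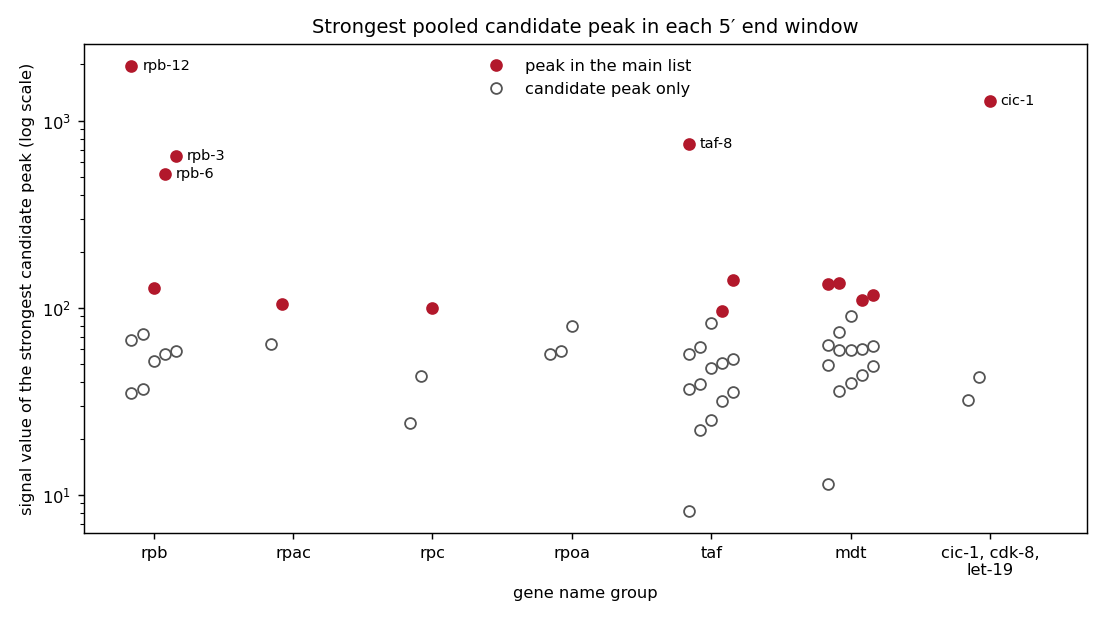
Signal value (log scale) of the strongest candidate peak in the 5' end window of each gene, by name group. Filled points are main peaks and open points are candidates outside the main list. The open point of mdt-6 was in the authors' conservative thresholded list. Not drawn are 6 genes without a candidate. The 5 labelled genes lie at 517.8 or more and every other gene at 141.1 or less.

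Among the Mediator genes chosen by name, the strong peak was at cic-1, of the kinase module. The gene cic-1 encodes cyclin C, the partner of the kinase CDK-8. Its peak had signals of 627.4 and 662.9 in replicates 1 and 2, and 1272.5 in the pooled list (rank 12). The summit lay 113 bp upstream of cic-1, at position 2401334 of chromosome III, and 736 bp upstream of the divergent strm-1, a sterol methyltransferase gene. The other 2 genes of this module had candidates only, with 32.1 at cdk-8, the kinase, and 42.7 at let-19, the counterpart of mammalian MED13.

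Of the 20 mdt genes, 4 had a main peak (20%, exact 95% interval 5.73 to 43.7), an interval that includes the 6.13% of protein-coding genes. All 4 peaks were weak. The genes mdt-17 and mdt-22 are counterparts of head subunits in yeast and mammals. The first had signals of 60.8 and 59.6 in the replicates and 134.8 pooled, with the summit 27 bp upstream. The second had 29.8 and 99.4 in the replicates and 135.8 pooled, with the summit 17 bp upstream and inside an intron of clpp-1 on the other strand. The signals of the replicates thus differed little at mdt-17 and by 3.34 times at mdt-22. At mdt-17 the replicate summits lay apart, at 72 bp in replicate 1 and -26 bp in replicate 2, negative being upstream.

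The gene mdt-19, whose yeast counterpart sits where the middle module meets polymerase, had 65.2 and 54.8 in the replicates and 117.1 pooled. Its summit lay 736 bp upstream and nearer to the divergent apb-1 (283 bp upstream). The gene mdt-26, whose human counterpart helps recruit elongation factors, had 33.2 and 94.6 in the replicates and 109.5 pooled, with the summit 47 bp inside the gene, in a coding exon, and also in the window of the divergent ift-43. At the mdt genes the order of the replicates therefore varied from gene to gene.

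Stronger peaks lay inside the mdt-26 and mdt-4 genes than at their 5' ends. An intron of mdt-26 held a main summit 625 bp downstream of the 5' end, with signals of 200.7 and 278.8 in the replicates and 485.2 pooled (rank 116), in the window of no other gene. A further summit of 115.9 lay in a coding exon of mdt-26, 2063 bp downstream. An intron of mdt-4, a middle-module counterpart, held a summit of 199.6 at 1385 bp downstream, and a nearby one of 41.6 lay at 1185 bp, both also in the window of ZK546.18. A summit of 121.4 in an intron of mdt-19 lay in the window of Y71H2B.12. These 5 summits are outside the counts of genes with a peak.

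Of the genes without a main peak, 41 had a candidate, with signals from 8.2 at taf-11.2 to 90.2 at mdt-6 and a median of 50.7. The median of all 93610 candidates was 31.6, which counts every candidate and not the strongest of a window. The highest 3 were mdt-6, a counterpart of a head subunit, with 90.2, taf-6.1 with 83.3 and rpoa-12 with 79.6. The lowest main peak of a member, at taf-7.2, had 95.7, so members just inside and just outside the list differed little in signal. No candidate summit lay in the windows of mdt-8, mdt-30, mdt-31, rpc-1, rpoa-1 and taf-7.1. Among genes with a candidate in the window, 14 of 55 members (25.5%) had a main peak, against 1225 of 12282 protein-coding genes (9.97%).

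The strong peaks were in the thresholded list of each replicate, and each weak one was in at most 1 of them. In the authors' conservative list 12 members had a summit in the window, against 6.01% of protein-coding genes. In the list of replicate 1 alone the count was 8, against 4.3%, and in that of replicate 2 alone 9, against 4.03%. The 5 strong peaks were in both replicates' lists, with a replicate 2 to replicate 1 ratio of 0.91 to 1.06 and pooled and replicate summits within 1 to 12 bp of each other. Of the 9 weak peaks, 0 were in both lists, 3 were in that of replicate 1 only (taf-4, mdt-19, rpc-2), 4 in that of replicate 2 only (mdt-22, mdt-26, rpb-11, taf-7.2) and 2 in neither (mdt-17, rpac-19). Their ratio ran from 0.68 to 3.34 and their summits were spread over 1 to 117 bp. Over all main peaks the same held by strength. All 103 main peaks at or above 517.8 were in both lists, as were 76.2% of those between 141.1 and 517.8 and 5.48% of those at 141.1 or below. Peaks that round to 141.1, taf-4 among them, fell in the middle band of this count.

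**Figure D2:**
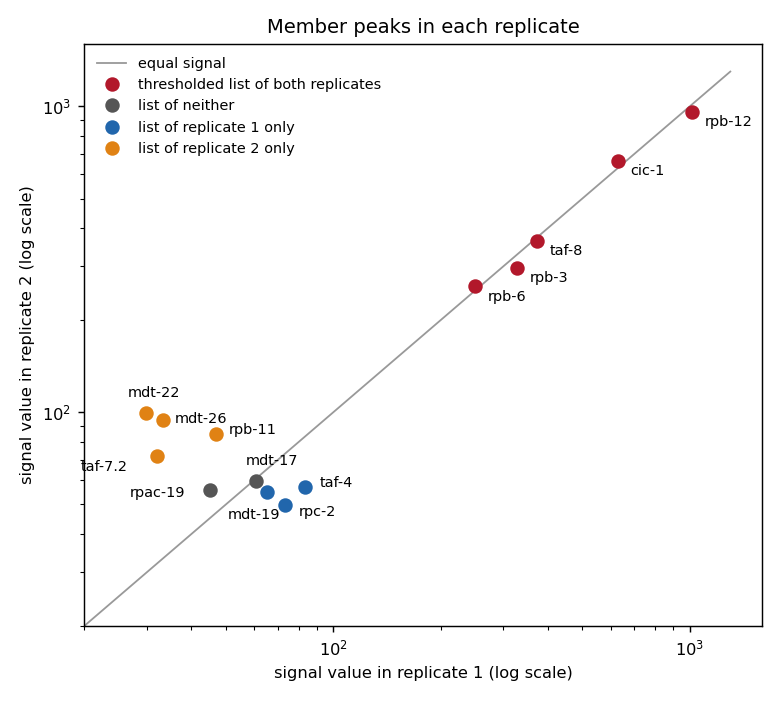
Signal value of the 14 peaks in replicate 1 and replicate 2, from the candidate list of each replicate, on log scales, coloured by the thresholded lists that hold the peak; the line marks equal signal. The 5 strong peaks follow the line, and the 9 weak ones scatter on both sides of it.

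A signal of 517.8 or more was found at 5 of the 14 (35.7%), against 119 of the 1225 protein-coding genes with a main peak (9.71%), a description in which the limit comes from a member's own value. The median summit of the 14 lay at -138.5 bp, negative values being upstream of the 5' end, against -247 bp over protein-coding genes with a main peak. Of the 14, 12 were upstream, in a window that itself lies mostly upstream, and the share over the 1225 genes was not counted. Strong summits ran from -337 to -113 bp and weak ones from -736 to 47 bp. Many worm genes receive a spliced leader, so an annotated 5' end need not be where transcription starts. Summits lay between genes at 10 of the 14, a share likewise not counted over the 1225 genes. The summit was in the window of another protein-coding gene at 10 of the 14, against 49.2% of the 1225 genes, and of one on the opposite strand at 7. Such a shared peak cannot be assigned to the member alone. At 3 members, mdt-17, rpc-2 and taf-8, the summit lay in no other gene's window. The nearest tRNA gene was 960 bp from a summit.

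**Figure D3:**
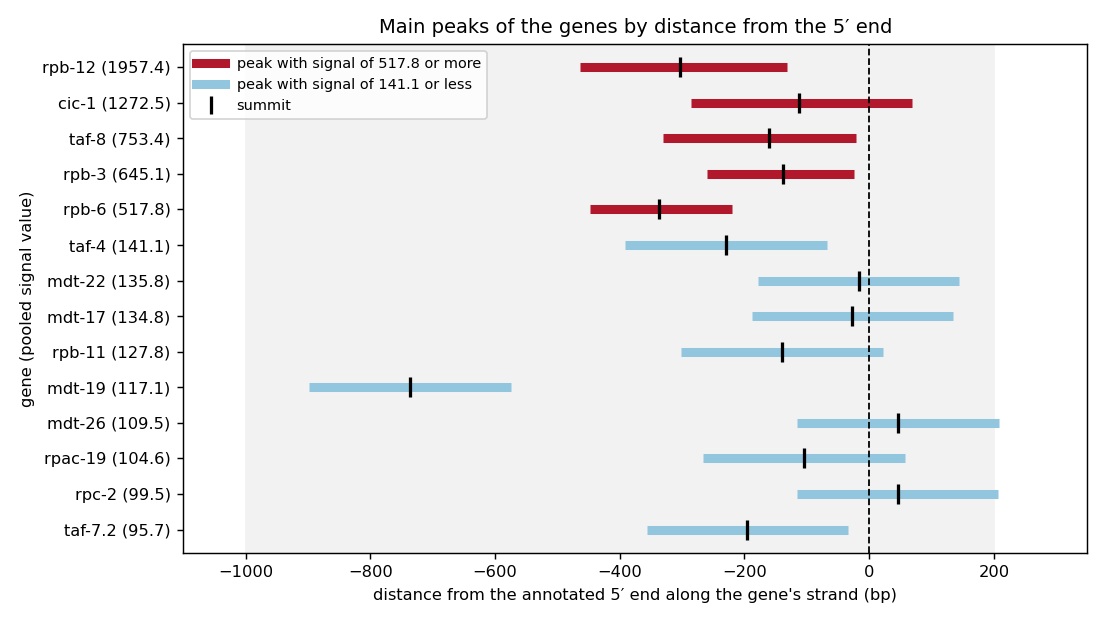
Extent (bar) and summit (tick) of the 14 main peaks by distance from the annotated 5' end along the gene's strand, from the strongest at the top to the weakest; grey marks the window of 1000 bp upstream to 200 bp downstream. Summits of 12 genes lie left of the 5' end, and mdt-26 and rpc-2 lie right of it.

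Divergent neighbours were counted because a peak between 2 genes lies upstream of both. The nearest upstream gene that did not overlap the member, at any distance, was divergent at 9 of 14 members with a main peak. Among these were rpb-11, 7781 bp from daf-5, and mdt-22, 1084 bp from nep-26. Their summits did not lie in the window of that neighbour. Of the 47 members without a main peak, 15 had a divergent one (31.9%). Over all protein-coding genes the shares were 59.3% with a peak and 44.5% without. A gene on the same strand ended within 500 bp upstream of 3 of the 14 and of 21 of the 47 (44.7%), against 21.1% and 17.8% over all protein-coding genes. On chromosome X, 0 of 4 members had a peak, which with so few genes allows a share of up to 60.2%, and 1.43% of protein-coding genes had one.

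The word marked first in the printed sequences was ACGACACTCC. It was read from the 150 strongest main peaks outside the windows of these genes, as the 8-base stretch most in excess within 75 bp of the summit (in 50 of 150 peaks and in 1 of 300 flanks lying 300 bp away), lengthened where at least 0.9 of its copies had the same base. All 10 bases were present at rpb-12, cic-1 and rpb-3, and 9 at taf-8, where the site differs by G3A (position 3 counted from the 5' end of the word, the base of the word first). At rpb-6 the site differed by A6G and C7T, so 8 bases matched. All 5 copies were on the strand of the gene. Over other protein-coding genes whose strongest summit had at least 8 bases, 55.7% were on the gene's strand.

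Whether rpb-6 counts as a match depended on how the word was made. With the strongest 100, 200 or 300 peaks, or with the peaks of these genes kept in, the word gained a final G (ACGACACTCCG) and the number of strong members within 2 mismatches was 4, without rpb-6. The choice of 150 peaks, and the search itself, followed a look at these very sequences, so the words describe the peaks and support nothing about the genes. With a seed of 7 or 6 bases the word was too short to separate peaks. With 50 bp around the summit the word found was ATTTCGGAG, present within 2 mismatches at 4 of the 5 and at 3 of the 9 weak peaks. It was also at 71.4% of the other peaks as strong and at 33.6% of all other main peaks. Read on the opposite strand, ATTTCGGAG begins with the bases that end ACGACACTCCG. It may therefore mark the same sites, which was not tested.

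The weak peaks had 6 to 8 bases of the word. The highest, 8 bases, was at rpb-11 on the opposite strand, with G3C and C5A. A match of at least 8 bases was found at 75.5% of the other main peaks with a signal of 517.8 or more, at 19.6% of those between 141.1 and 517.8 and at 10% of those at 141.1 or below, against 6.12% of all flanks. All 98 peaks of the highest band were among the 150 from which the word was read, so their share, and with it part of the fall between bands, follows from how the word was made. Among the weak members 1 of 9 had such a match. The mdt-26 intron peak of 485.2 had 7 of 10 bases.

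**Figure D4:**
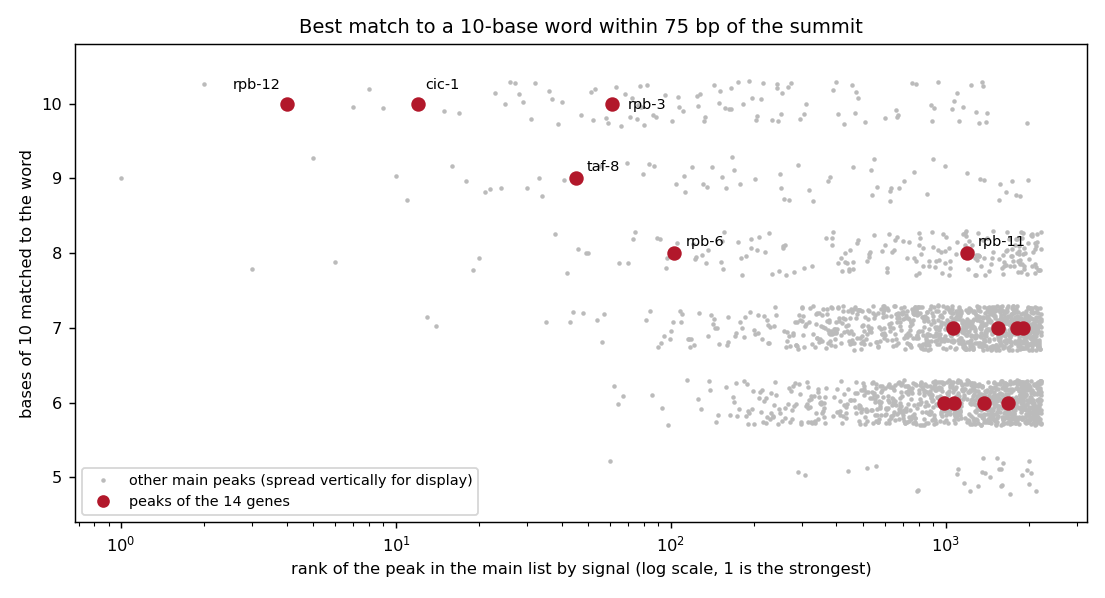
Bases of the word ACGACACTCC matched within 75 bp of the summit, by rank of the peak in the main list (log scale), for the 14 genes and for the other main peaks, which are spread vertically around whole numbers for display. The 5 strong peaks have 8 to 10 bases, and of the 9 weak ones only rpb-11 has 8; unlabelled points have 6 or 7.

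At the strong peaks the following words, where present, stood at a nearly fixed distance. The word TTGTTTAG began 28 or 29 bp after the start of the first word at all 5 strong peaks, with 8 of 8 bases at rpb-12 and rpb-3, 7 at rpb-6 and taf-8 and 6 at cic-1. The weak mdt-17 peak also had 6 bases of it, 28 bp after a site with 6 of 10 bases of the first word. Among other main peaks with at least 8 bases of the first word, 39.4% had at least 6 bases of it at 26 to 29 bp, against 2.71% of those with fewer. With at least 7 bases the shares were 31.5% and 0.271%. Both words were read from the strongest of these peaks. The word CGTAAATC began 36 or 37 bp after the start of the first word at cic-1 and rpb-6, with 8 of 8 bases, and at taf-8 with 7. At rpb-12 and rpb-3 it had 4 bases. The distance bands were chosen after these sequences were seen.

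Copies of the word also lay where no peak was. Of 446 exact copies in the genome, 110 (24.7%) lay within 75 bp of a main summit. The window of rpc-1 held an exact copy 138 bp upstream on the opposite strand, yet the nearest main summit was 31273 bp away and the nearest candidate 1093 bp away with a signal of 16. The window of mdt-15, a counterpart of a tail subunit known in worms for regulating lipid genes, held 9 of 10 bases 560 bp upstream, with the nearest candidate 313 bp away at 33.8. At least 9 bases were found in the windows of 2 of the 47 members without a main peak (4.26%). Over protein-coding genes without a main peak the share was 3.18%. Copies with 9 bases also lay away from the main summits of rpb-6, rpc-2 and taf-7.2, at distances of 237, 646 and 282 bp from them.

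Common promoter motifs were searched on both strands. A run of 6 T (TTTTTT) was present within 100 bp on either side of 12 of the 14 summits, including all 5 strong ones, against 55.9% of all main peaks, but within 50 bp of 5 of 14, against 26.8%. The GC box GGGCGG and the E-box CACGTG were at 0 of 14 within 100 bp, against 8.75% and 4.31% of main peaks. The TATA box TATAAA was at 4 of 14 within 100 bp, against 12%, and at 1 of 14 within 50 bp, against 4.76%.

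Other genes of the transcription machinery, taken from a list of general factors, subunits under other names and elongation or termination factors, had a main peak at 12 of 70 (17.1%), against 6.13% of protein-coding genes. The strongest was sop-3, the worm counterpart of the Mediator subunit MED1, with 272.8 and 271.1 in the replicates and 543.2 pooled, 142 bp upstream. Its summit held all 10 bases of the word, on the opposite strand. It was the sole strong peak of that list, and the other 11 had 6 or 7 bases of the word.

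Among subunits under other names, 2 of 7 had a peak (28.6%), sop-3 and rgr-1, the counterpart of MED14, with 107.1. The gene ama-1, for the largest subunit of polymerase II, had none. Among general factors 3 of 30 had one (10%), a share near the 6.13% of protein-coding genes. They were snpc-3.4 (184.1) and snpc-3.1 (142.4), both for the complex that activates small nuclear RNA genes, and pqn-51 (141.7). Among elongation and termination factors 7 of 33 had one (21.2%). These were pinn-1, a prolyl isomerase (307.3), xrn-2, an exonuclease (230.2), ints-4, an Integrator subunit (218.6), cids-2 (193.2), ell-1 (135.9), spt-4 (118.7) and pafo-1 (106.9).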

How the data were processed

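ChIP-seq peak lists from 2 biological replicates of 1 group, whole L4 larvae with tagged Y48G9A.11, were analysed; replicate numbers are those of the labels. Per the labels, chromatin was sonicated to fragments of 200 to 800 bp, and positions are in build ce11. Per the deposited list of files, peaks came from filtered alignments and a control; no aligner or peak caller is named in the sources used here. The authors deposited, for every peak, a signal value of unstated scale and a score, and in ranked lists also an irreproducible discovery rate as −log10. The lowest score in the thresholded lists was 830. The pooled signal is about the sum of the replicates' values. The deposited files give no read depth, so its effect is unknown, and intervals (Clopper-Pearson, 95%) cover counting error only.

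Genes came from Ensembl release 115 (WBcel235, 46890 genes) and sequences from the RefSeq genome of that assembly. Replicate values come from each replicate's own lists, by an overlap of at least 1 bp. Python 3.11.15, numpy 2.4.6, scipy 1.17.1 and matplotlib 3.10.9 were used. Tested on simulated data, 200 of 200 planted summits were put in the right window and 2 of 2 planted words were found. No enrichment test was made. Members and lists were chosen with earlier results of these data known, and the words after the member sequences had been viewed. Genes named are those with a main peak, the 3 strongest candidates without one, those gained under an alternative, and genes sharing a summit; partners, genes without a candidate and gene-body peaks were added after values were seen. In the transcription list 3 names were not in the annotation.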

Additional observations from a re-analysis of the deposited data

How the results depend on the processing

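The number of members with a main peak, 14, was 8 to 9 in the list of a single replicate and 8 with main peaks at or above the median signal. It was 11 to 16 under the other alternatives: 12 in the conservative list, which lost mdt-22, mdt-26 and taf-7.2 and gained mdt-6; 13 with a window from 500 bp upstream; 16 from 2000 bp, which added mdt-8 and rpb-4; 11 by nearest 5' end, which lost mdt-19, rpb-12 and taf-7.2; and 14 by overlap, by any transcript and without peaks near tRNA genes. Over all protein-coding genes the share ran from 3.97% to 8.2%. The 5 strong genes stayed in every list and window, and rpb-12 was lost by nearest 5' end. The transcription list gave 12, and 7 to 9 with 1 replicate, where cdk-9 was added by that of replicate 2; the 2000 bp window added cdk-7 and ints-11. The median distance of -138.5 bp was -198.5 to -150.0 bp in single replicates, over 8 and 9 members. The median signal of 135.3 was 69.1 to 89.8 in single replicates, since pooled values are about sums. No paired analysis was possible because there is 1 group and no test. Depth is unknown, and how many weak sites it hid was not tested.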
